A study of Mus musculus with 4 samples.

Results

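Antibody and RNA signals of 7 surface proteins used to sort mouse blood stem and progenitor cells were set side by side in single bone marrow cells. The antibodies were CD117, Sca1, CD150, CD48, CD34, CD135 and CD201, and their genes are Kit, Ly6a, Slamf1, Cd48, Cd34, Flt3 and Procr. They were 7 of the 13 antibodies against surface proteins in the deposited files (15 with the 2 hashtags) and 7 of 32285 genes. They were chosen by name, and none was dropped. RNA and antibody tags had been counted together (CITE-seq) in CD45.2+Kit+ bone marrow cells 10 weeks after transplantation. The 4 groups had 1 library each: control (library name wt), Mll3SI (mll3KI), Mll4SI (mll4KI) and Mll3/4SI (dKI). The labels do not spell out SI, and they give no strain, sex, number of animals or use of the hashtags. Mll3 and Mll4 are names of histone methyltransferases. Because cells had been taken as Kit+, a low CD117 level here is low only within that selection.

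Blood stem cells are recognised by combining these proteins. In mouse marrow, the cells that rebuild blood for longest carry Kit, Sca1, CD150 and CD201 and lack CD48, CD34 and CD135, and CD48, CD34 and CD135 appear as cells become multipotent or lymphoid-primed progenitors. Kit and Flt3 are receptor tyrosine kinases for stem cell factor and Flt3 ligand. CD150 and CD48 belong to the SLAM family of adhesion receptors, Sca1 is a lipid-anchored protein of the Ly6 family, CD34 is a sialomucin, and CD201 is the endothelial protein C receptor.

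The member genes were matched by Ensembl ID to build GRCm38. Kit (ENSMUSG00000005672) lies on chromosome 5 from 75574916 to 75656722, and Flt3 (ENSMUSG00000042817) on the same chromosome from 147330741 to 147400489. The SLAM genes Cd48 (ENSMUSG00000015355, 171682009 to 171705258) and Slamf1 (ENSMUSG00000015316, 171767127 to 171801184) are close together on chromosome 1, which also holds Cd34 (ENSMUSG00000016494, 194938819 to 194961279). Ly6a (ENSMUSG00000075602) lies on chromosome 15 from 74994877 to 74998031, and Procr (ENSMUSG00000027611) on chromosome 2 from 155751117 to 155755471.

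After filtering, 6743 control, 8023 Mll3SI, 10186 Mll4SI and 6755 Mll3/4SI cells were kept. Their medians lay between 12800 and 19185 gene UMIs (unique molecular identifiers, each a counted molecule) and between 1747 and 2393 UMIs of the 13 antibodies. Pairs of libraries shared 16 to 29 cell barcodes. Mll4SI and Mll3/4SI also differed from control and Mll3SI in sex-linked transcripts: Xist stood at 1148 and 1360 CPM (UMIs scaled to a common total per library) against 0.0315 and 0.194 CPM, and the Y-linked Eif2s3y had no UMI (a limit of 0.0204 and 0.0211 CPM) against 63.3 and 62.0 CPM. The part of this difference in the results below was not tested. With 1 library per group there was no replicate check, so no p-value is given. Bracketed 95% intervals cover counting error only, not the spread between animals.

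Clusters were named from marker genes that included no member. HSC/MPP-like cells (stem cells and multipotent progenitors, clusters 7 and 16) had 10 and 9 HSC/MPP markers of a log2 fold of at least 1, with Mecom, Meis1, Angpt1 and Msi2 among the leading genes. They numbered 811 in control, 819 in Mll3SI, 734 for Mll4SI and 324 for Mll3/4SI. Cluster 11 carried 10 erythroid and 9 HSC/MPP markers, was led by Car1 and Pf4, and stayed unnamed (415, 430, 226 and 123 cells in the same order). Cluster 18, led by Angpt1, Cpa3, Arhgap6, Fcer1a and Pf4, held 687 cells of Mll3/4SI, 1 of Mll4SI and none of the other libraries. By its markers it was named HSC/MPP (8 HSC/MPP and 3 megakaryocyte markers). It was kept apart from the HSC/MPP-like cells, since a cluster of 1 library may be that library rather than a cell type. This was chosen after the clusters were seen, and only for clusters named HSC/MPP. Granulocyte-like cluster 10, with 1436 of 1450 cells from Mll3/4SI, stayed in its class. Granulocyte-like cells, the largest class (4405 to 7983 cells), have little RNA for Ly6a, Slamf1 and Procr. They gave the background level of Sca1, CD150, CD135 and CD201. Their clusters differed between libraries, with clusters 0, 3, 8 and 17 mostly from Mll4SI and 10 and 12 mostly from Mll3/4SI.

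Antibody levels are centred log2 ratios (CLR): the log2 of a cell's UMIs plus 1, minus the mean of that value over the 13 antibodies of the same cell. RNA levels are CPM, taken after adding up the UMIs of all cells that a library has in a class. Over the 23 combinations of class and library with at least 50 cells, 6 members had more antibody where they had more RNA. The Pearson correlation between the median CLR and log2(CPM + 1) was 0.93 for Cd48, 0.90 for Slamf1, 0.87 for Kit, 0.87 for Cd34, 0.68 for Ly6a and 0.53 for Flt3. For Procr it was 0.01. These points share libraries and depth, so the values are descriptions. The members were left out of the genes used for clustering. The order by rank was looser for Slamf1 (Spearman 0.49), whose correlation rested on cluster 11 and cluster 18 standing above all other classes.

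**Figure D1:**
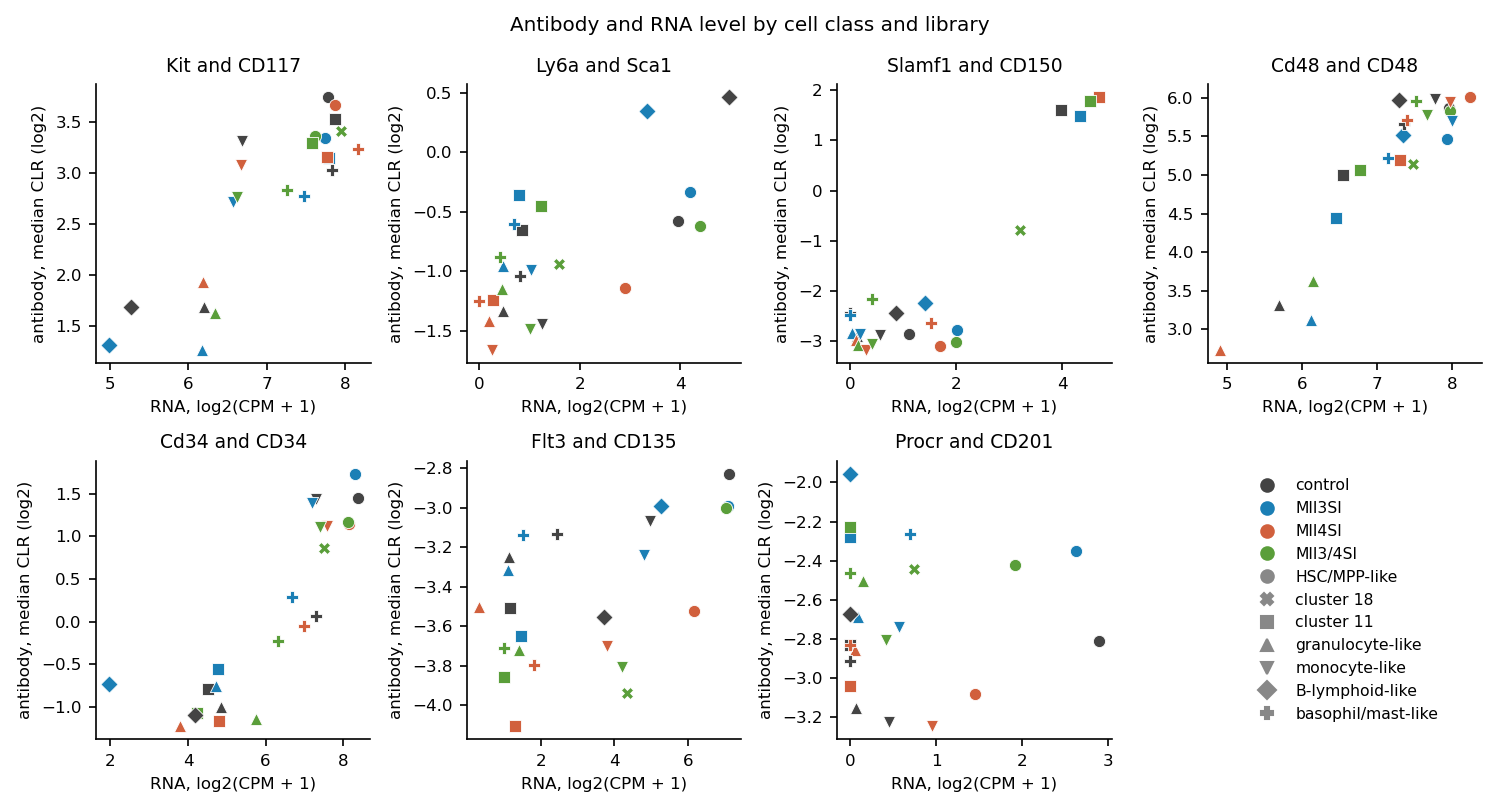
Median centred log2 ratio of each antibody (vertical axis) against log2(CPM + 1) of its gene (horizontal axis) for the 23 combinations of class and library with at least 50 cells; colour marks the library and shape the class. CD48, CD117 and CD34 follow their RNA over the classes, CD150 stands out in cluster 11 and cluster 18, and CD201 spans -3.25 to -1.96 with no relation to Procr RNA.

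Kit, the receptor used to select the cells, had its highest RNA in basophil/mast-like cells of Mll4SI (287 CPM) and its lowest in B-lymphoid-like cells of Mll3SI (30.6 CPM). CD117 followed only in part. Its medians were 3.34 to 3.74 in HSC/MPP-like cells, 3.14 to 3.53 in cluster 11, 2.71 to 3.31 in monocyte-like cells and 1.26 to 1.93 in granulocyte-like cells. In basophil/mast-like cells they were 2.77 to 3.23, below HSC/MPP-like cells. In control, basophil/mast-like cells had more Kit RNA than monocyte-like cells (227 against 102 CPM) but a lower CD117 median (3.03 against 3.31). Cd48, which marks progenitors past the stem cell stage, stood at 244 to 300 CPM in HSC/MPP-like cells and 29.0 to 69.7 CPM in granulocyte-like cells. The CD48 antibody medians there were 5.47 to 6.01 and 2.73 to 3.63. Cd34 RNA was highest in HSC/MPP-like cells (276 to 332 CPM), with monocyte-like cells at 145 to 192 CPM and basophil/mast-like cells at 78.8 to 157 CPM. In control these last classes hardly differed in RNA (156 and 157 CPM), but the CD34 antibody was higher in monocyte-like (1.43) than in basophil/mast-like cells (0.07).

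Slamf1 RNA was highest outside the HSC/MPP-like class. Cluster 11 had 14.7 CPM in control [12.3 to 17.5], 19.2 in Mll3SI, 24.96 for Mll4SI and 22.0 for Mll3/4SI, and cluster 18 had 8.29 CPM in Mll3/4SI [6.90 to 9.89]. HSC/MPP-like cells had between 1.17 and 3.06 CPM. A CD150 level above the 99th percentile of the granulocyte-like cells of the same library was found in 90.4%, 91.4%, 94.7% and 90.2% of cluster 11 cells, in 51.4% of cluster 18 cells and in 8.75%, 11.7%, 11.3% and 11.1% of HSC/MPP-like cells. Cluster 11, cluster 18 and the HSC/MPP-like class therefore had the same order in Slamf1 RNA and in CD150.

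Ly6a RNA, coding for Sca1, was highest in control B-lymphoid-like cells (30.2 CPM) and stood at 6.46 to 20.1 CPM in HSC/MPP-like cells. In granulocyte-like cells it was 0.138 to 0.392 CPM. Flt3 RNA was highest in HSC/MPP-like cells (70.4 to 135 CPM), lower in monocyte-like cells (12.9 to 30.1 CPM) and 1.01 to 1.76 CPM in cluster 11. Procr RNA had its highest level in control HSC/MPP-like cells (6.42 CPM), was at most 0.941 CPM in every class other than HSC/MPP-like, and had no UMI in cluster 11 of any library, where the limit that 3 UMIs allow was 0.345 to 1.01 CPM. The CD201 antibody medians of cluster 11 nevertheless spanned -3.04 to -2.23, a range that overlapped the -3.08 to -2.35 of HSC/MPP-like cells.

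By a rule fixed with the design, the 3 genes whose log2(CPM + 1) over the 23 points was most like each member were taken from 8638 genes with a mean of at least 10 CPM. Kit was followed most closely by Rab38 (0.98), Rhobtb3 (0.97) and 4732471J01Rik (0.96), and Cd48 by Pacc1 (0.96), Galnt11 (0.96) and Zdhhc8 (0.95). Slamf1 was nearest to Trpc6 (0.94), Arhgef12 (0.94) and Cavin2 (0.93). Ly6a was nearest to Dntt (0.93), Myl10 (0.91) and Nemp1 (0.88). For Flt3 the nearest were Eml4 (0.92), H2afy (0.92) and Dip2b (0.90), for Cd34 Sp110, Ern1 and Tbc1d15 (all 0.92), and for Procr Runx2, Arhgap32 (both 0.82) and Fchsd2 (0.81).

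The next question was whether a cell's antibody level matched its own gene within 1 class and library. HSC/MPP-like cells of each library were ranked by an antibody, and the RNA of the highest and lowest 25% was compared (202, 204, 183 and 81 cells on each side in control, Mll3SI, Mll4SI and Mll3/4SI). The own gene was higher by at least 0.5 (log2) in the highest 25% for 6, 7, 6 and 7 of the 7 antibodies. It was the most strongly raised of the 7 genes for 6, 6, 4 and 6 antibodies. The exceptions to the first count were both Kit, at 0.45 in control and 0.18 in Mll4SI. For this ranking no share over all genes was taken, so these counts describe the 7 member genes only. In control, ranking by Sca1 also raised Procr (3.45), Slamf1 (2.29) and Flt3 (1.44) by at least 0.5. Kit (0.37), Cd48 (-0.39) and Cd34 (-0.04) did not reach it. Passing 0.5 was thus not particular to the own gene.

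Sca1 separated its RNA in every library. In control, 213 Ly6a UMIs in the highest 25% stood against 3 in the lowest, a fold of 103 [34.9 to 505], and the folds were 32.01 [17.0 to 67.8] in Mll3SI, 134 [23.5 to 5364] for Mll4SI and 61.6 [23.6 to 229] for Mll3/4SI. CD135, with a median of only 1 to 3 UMIs per HSC/MPP-like cell, separated Flt3 by 8.04 [6.86 to 9.46], 10.3 [8.54 to 12.6], 7.098 [5.79 to 8.77] and 11.03 [8.41 to 14.7]. The highest and lowest 25% by CD150 held 19 against 0, 43 against 1, 35 against 1 and 23 against 0 Slamf1 UMIs. With a floor of 3 UMIs in the lowest 25%, Slamf1 was at least 8.03-fold higher in control and at least 9.93-fold higher in Mll3/4SI. Procr was also higher in cells with more CD201 in every library, by 9.22 [4.98 to 18.6], 82.4 [14.2 to 3314], 4.96 [1.58 to 20.5] and 8.20 [1.79 to 76.1]. The Mll3SI value rests on 53 against 1 UMI.

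Abundant markers separated their RNA less. Top-to-bottom folds were 1.76, 2.53, 1.43 and 1.52 for Cd48, 1.60, 1.70, 1.67 and 1.68 for Cd34, and 1.37, 1.44, 1.13 and 1.70 for Kit in the order control, Mll3SI, Mll4SI and Mll3/4SI. So CD201 followed Procr between cells of 1 library, although its class medians did not follow Procr between classes and libraries. This was not particular to CD201. Ranking by Sca1 separated Procr by 18.1, 31.1, 8.37 and 5.06 in the same order, more than CD201 in control and Mll4SI and less in Mll3SI and Mll3/4SI.

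HSC/MPP-like cells of each SI library were then compared with control. A log2 difference of at least 0.5 in size was counted as a call, for RNA on the log2(CPM + 1) scale, which understates the change of low genes, and for antibodies as a difference of median CLR. The class differed in size between libraries, and RNA shares of a class cannot tell fewer marker-bearing cells from less RNA per cell. Of the 7 genes, 1 was called in Mll3SI, 4 for Mll4SI and 2 for Mll3/4SI, where 3.91%, 10.2% and 8.16% of all 12566 genes tested were called. Of the 7 antibodies, 0, 2 and 0 were called, against 15.4%, 23.1% and 7.69% of the 13. RNA and antibody differed from control in the same direction for 5, 5 and 3 members. All 3 comparisons share the control library.

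**Figure D2:**
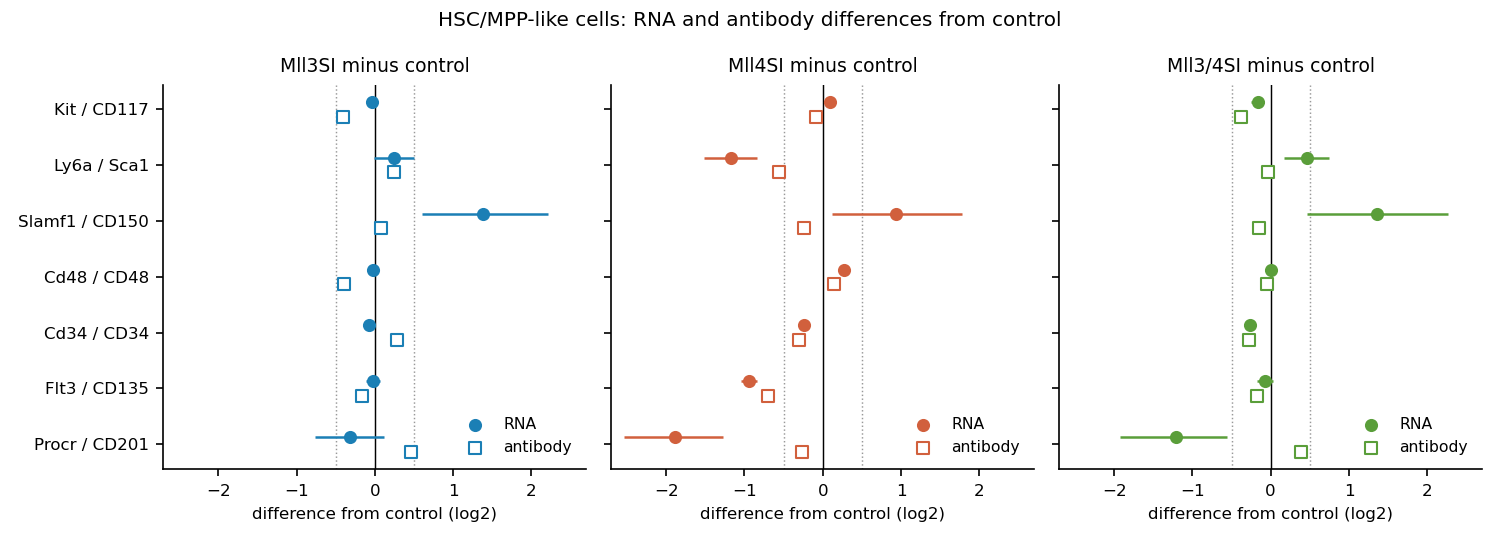
Differences from control in HSC/MPP-like cells for the 7 members, as the log2 ratio of CPM with its 95% counting interval (filled circles) and as the difference of median centred log2 ratio (open squares); dotted lines mark 0.5 in size. In Mll4SI, Ly6a, Flt3 and Procr lie left of the line in RNA and Sca1 and CD135 in antibody, while Kit, Cd48 and Cd34 stay within it in all 3 libraries.

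With cluster 18 kept apart, most calls were in Mll4SI. Flt3 stood at 135 CPM in control, 133 in Mll3SI, 70.4 for Mll4SI and 129 for Mll3/4SI, so Mll4SI was the lowest, at -0.93 from control on the log2 scale (a fold of 0.520 [0.484 to 0.558]). This order depended on cluster 18: with it counted as HSC/MPP-like, Flt3 in Mll3/4SI was at -1.20 and CD135 at -0.92, and with classes taken from the nearest control cells Flt3 there was at -1.39. The CD135 median was -2.83, -2.99, -3.52 and -3.00 in the same order. It differed from control by -0.70 in Mll4SI, where granulocyte-like cells differed by -0.25 and cluster 11 by -0.60. Flt3 in cluster 11 was 1.48 CPM in Mll4SI against 1.27 CPM in control, so CD135 was lower there without lower RNA. The share of HSC/MPP-like cells with CD135 above the 99th percentile of granulocyte-like cells was 16.3%, 17.6%, 7.63% [5.81 to 9.79] and 17.6%. Flt3 was also lower in the monocyte-like cells of Mll4SI (12.9 against 30.1 CPM, -1.16) together with CD135 (-0.63).

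Ly6a stood at 14.6, 17.3, 6.46 and 20.1 CPM, with Mll4SI again the lowest, at -1.06 (0.444 [0.350 to 0.559]). In Mll3/4SI the direction of Ly6a was not stable: its difference of 0.44 became -0.72 with cluster 18 counted and -0.99 by nearest control cells, and it was -0.02 in Hashtag1 and 1.17 in Hashtag2 cells. The Sca1 median was -0.58 in control, -0.34 in Mll3SI, -1.14 for Mll4SI and -0.62 for Mll3/4SI. Mll4SI thus differed from control by -0.56, against -0.09 in granulocyte-like cells and -0.59 in cluster 11. Cluster 11 had little Ly6a RNA, with 1 UMI in Mll4SI against 7 in control. Sca1 above the granulocyte-like percentile was found in 31.3%, 31.6%, 11.04% [8.86 to 13.5] and 23.8% of the cells. The upper quartile of Sca1 in Mll4SI was -0.60, close to the control median.

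Procr stood at 6.42 CPM in control (115 UMIs), 5.15 in Mll3SI (74 UMIs), 1.74 for Mll4SI (28 UMIs) and 2.77 for Mll3/4SI (23 UMIs). It was lower in Mll4SI by -1.44 (0.271 [0.173 to 0.413]) and in Mll3/4SI by -0.98 (0.431 [0.263 to 0.679]). The Mll3/4SI value was -1.62 with cluster 18 counted, -1.76 by nearest control cells and -0.48 in Hashtag2 cells. The CD201 medians were -2.81, -2.35, -3.08 and -2.42, so in Mll3/4SI the antibody was higher than control (0.39) while the RNA was lower. The same antibody was also higher in granulocyte-like cells, by 0.46 in Mll3SI, 0.30 for Mll4SI and 0.65 for Mll3/4SI, although Procr was at or below 0.107 CPM there. A CLR depends on the other antibodies of the cell. In granulocyte-like cells Gr1 was at 4.81 in control and 1.65 in Mll3/4SI, and CD41 at -3.13 and -1.93. The part of these in the CD201 difference was not tested. Counted against the granulocyte-like cells of the same library, HSC/MPP-like medians were higher by 0.34 in control, 0.34 in Mll3SI and 0.08 in Mll3/4SI and differed by -0.23 in Mll4SI. Cells above the 99th percentile made up 7.52% [5.80 to 9.56], 7.08% [5.42 to 9.06], 1.63% [0.848 to 2.84] and 3.09% [1.49 to 5.60].

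Slamf1 was called higher than control in every SI library, by 0.90 in Mll3SI (2.61 [1.52 to 4.62]), 0.58 for Mll4SI (1.91 [1.08 to 3.44]) and 0.88 for Mll3/4SI (2.57 [1.38 to 4.82]). They rest on 21 UMIs in control and 44, 36 and 25 in the SI libraries. The calls held in 10, 6 and 8 of 11 alternatives, with the Mll4SI value between 0.13 and 0.70 and the Mll3/4SI value at -0.17 in Hashtag1 and 2.16 in Hashtag2 cells. The CD150 medians of -2.85, -2.77, -3.09 and -3.01, at 2 to 3 UMIs per cell, differed from control by 0.09, -0.24 and -0.15, and a median does not show a change carried by few cells. The share of cells with CD150 above the granulocyte-like percentile, given above, was 8.75% [6.90 to 10.9] in control and 11.7% [9.60 to 14.1], 11.3% [9.11 to 13.8] and 11.1% [7.90 to 15.05] in the SI libraries, with overlapping intervals. CD150 took 0.628%, 1.22%, 0.417% and 0.699% of the summed antibody UMIs, higher than control in Mll3SI and lower in Mll4SI. With cluster 18 kept apart, Kit, Cd48 and Cd34 differed by less than 0.5 in all libraries, from -0.27 for Cd34 in Mll3/4SI to 0.27 for Cd48 in Mll4SI. Counting cluster 18 put Cd34 in Mll3/4SI at -0.63. Their antibodies moved between -0.40 (CD117 in Mll3SI) and 0.29 (CD34 in Mll3SI).

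CD117 in Mll3SI was lower in granulocyte-like cells too (-0.42), and Sca1 there was higher in granulocyte-like (0.38) as in HSC/MPP-like cells (0.24). CD48 was lower in both classes as well (-0.19 and -0.39), although Cd48 RNA was higher in granulocyte-like cells (0.43). CD201, Sca1, CD117 and CD48 of Mll3SI thus shifted the same way in both classes, for CD201 and Sca1 also where the RNA is almost absent. The source of these shifts was not tested.

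In the other classes, Slamf1 was called higher in cluster 11 of Mll4SI (0.72, 1.69 [1.31 to 2.19]) and Mll3/4SI (0.55, 1.49 [1.09 to 2.02]), without a CD150 call. Of the 5 members tested in cluster 11, 0, 2 and 1 were called in Mll3SI, Mll4SI and Mll3/4SI, against 9.31%, 14.4% and 14.8% of all genes. In granulocyte-like cells 0, 3 and 1 of 4 tested members were called, against 3%, 18.4% and 11.2%. Cd48 (-0.78), Cd34 (-1.05) and Flt3 (-0.80) were lower there in Mll4SI, with the CD48 antibody lower (-0.58). With clusters 5 and 9 alone, 2 early granulocyte-like clusters with cells of every library, the Cd48 difference was 0.053. Cd34 RNA was higher in granulocyte-like cells of Mll3/4SI (52.6 against 27.6 CPM, 0.91), without a CD34 antibody call (-0.14), and the difference was -0.54 in clusters 5 and 9 alone and -0.68 by nearest control cells. In monocyte-like cells 0, 1 and 1 of 4 were called, against 2.87%, 7.07% and 6.72%. Both calls were Flt3, described above for Mll4SI and at -0.75 for Mll3/4SI, where CD135 was also lower (-0.74). Of the 7 antibodies, 2, 2 and 1 were called in cluster 11 (against 15.4%, 23.1% and 15.4% of the 13), 0, 1 and 1 in granulocyte-like cells (against 23.1% in each library) and 1, 1 and 2 in monocyte-like cells (against 23.1%, 15.4% and 30.8%). CD201 was called higher in cluster 11 of Mll3SI (0.55) and Mll3/4SI (0.60), where Procr had no UMI, and CD117 was called lower in monocyte-like cells of the same libraries (-0.60 and -0.54) without a Kit call.

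In basophil/mast-like cells, with 116 to 168 cells a library, 2, 1 and 3 of 4 members were called, against 20.8%, 23.9% and 26.4% of genes, and all were lower. Flt3 was called in all 3 libraries (-0.94, -0.63 and -1.44), on 3, 4 and 3 UMIs against 12 in control. Cd34 was lower there in Mll3SI (-0.62) and Mll3/4SI (-0.99), and Kit was lower in Mll3/4SI (-0.57). In these cells 1 of 7 antibodies was called in each library, against 23.1%, 23.1% and 30.8% of the 13, namely CD201 in Mll3SI (0.65) and CD135 in Mll4SI (-0.66) and Mll3/4SI (-0.57). By its share of summed antibody UMIs, CD135 in Mll4SI was at 1.02 instead. Only control (73) and Mll3SI (184) had enough B-lymphoid-like cells, and 4 of 6 members were called in Mll3SI against 26.8% of genes, with 2 of 7 antibodies against 15.4%. Flt3 was higher (37.6 against 12.2 CPM, 3.07 [1.77 to 5.72]) with CD135 (0.56), and CD201 was higher (0.72) with no Procr UMI in either library. Ly6a (9.09 against 30.2 CPM) and Cd34 (2.89 against 17.1 CPM) were lower, and Slamf1 (0.55) rested on 4 against 1 UMI. Cd34 was at 1.30 in Hashtag2 cells and Slamf1 at -1.30 by the mean over cells, so neither direction was stable. One B-lymphoid-like cell of Mll3SI held 2882 CD135 UMIs, 12.8% of that library's total, which the median did not reflect.

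Cluster 18 of Mll3/4SI had more Kit RNA (246 CPM) than HSC/MPP-like cells of the same library (195 CPM), with a close CD117 median (3.40 against 3.36). Its Flt3 (19.3 CPM), Ly6a (2.01 CPM) and Procr (0.669 CPM, 10 UMIs) were lower than the 129, 20.1 and 2.77 CPM of those cells. Slamf1 was higher (8.29 against 3.01 CPM), as was CD150 (-0.78 against -3.01), and Cd48 (178 CPM) and Cd34 (181 CPM) were lower. CD41, an integrin of megakaryocytes and mast cells, had a median CLR of 3.66 there against -0.04 in HSC/MPP-like cells. Counting this cluster as HSC/MPP-like gave 5 instead of 2 called genes in Mll3/4SI, with Ly6a, Flt3, Procr and Cd34 lower and Slamf1 higher (1.77), and 2 called antibodies, CD135 lower and CD150 higher (1.08).

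Stem cells are usually sought as CD150+CD48- cells, and a small group of HSC/MPP-like cells had more CD150 than CD48 UMIs. This split was chosen after the values were seen. It held 21 of 811 control cells (2.59% [1.61 to 3.93]), 52 of 819 in Mll3SI (6.35% [4.78 to 8.24]), 4 of 734 for Mll4SI (0.545% [0.149 to 1.39]) and 7 of 324 for Mll3/4SI (2.16% [0.873 to 4.40]). The ratio to control was 2.45 [1.48 to 4.20] in Mll3SI, 0.210 [0.0548 to 0.610] for Mll4SI and 0.834 [0.312 to 1.98] for Mll3/4SI. With all kept cells of the library as the denominator, the ratios were 2.08 [1.24 to 3.59], 0.126 [0.0327 to 0.367] and 0.333 [0.123 to 0.798]. The CD48 antibody of Mll3SI was lower than control in all classes compared. This included granulocyte-like (-0.19) and monocyte-like cells (-0.28), where Cd48 RNA was higher (0.43 and 0.22). Because the split uses CD48 UMIs, such a shift can enter the Mll3SI ratio, and its part was not tested. Within the hashtags the Mll3SI ratio was 1.25 [0.627 to 2.53] for Hashtag1 and 6.96 [2.76 to 22.1] for Hashtag2, so the Mll3SI ratio was larger in Hashtag2 cells. In Mll4SI the ratios were 0.0721 [0.00182 to 0.454] and 0.484 [0.0530 to 2.69], both below 1, and in Mll3/4SI they were 0.353 [0.0697 to 1.201] and 3.23 [0.710 to 13.5], on opposite sides of 1. Outside the HSC/MPP-like class, 26, 56, 1 and 6 cells of cluster 11 and 15 cells of cluster 18 met the same condition. None of the granulocyte-like, monocyte-like, B-lymphoid-like or basophil/mast-like cells did. At a finer clustering (Leiden resolution 2) the share was 6.92% in control, 15.5% in Mll3SI and 5.63% in Mll3/4SI. The class then held 47 such cells in control and 108 in Mll3SI, of 47 and 109 in the whole library. The share thus depended on where the class was cut. No Mll4SI value is given for this setting.

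**Figure D3:**
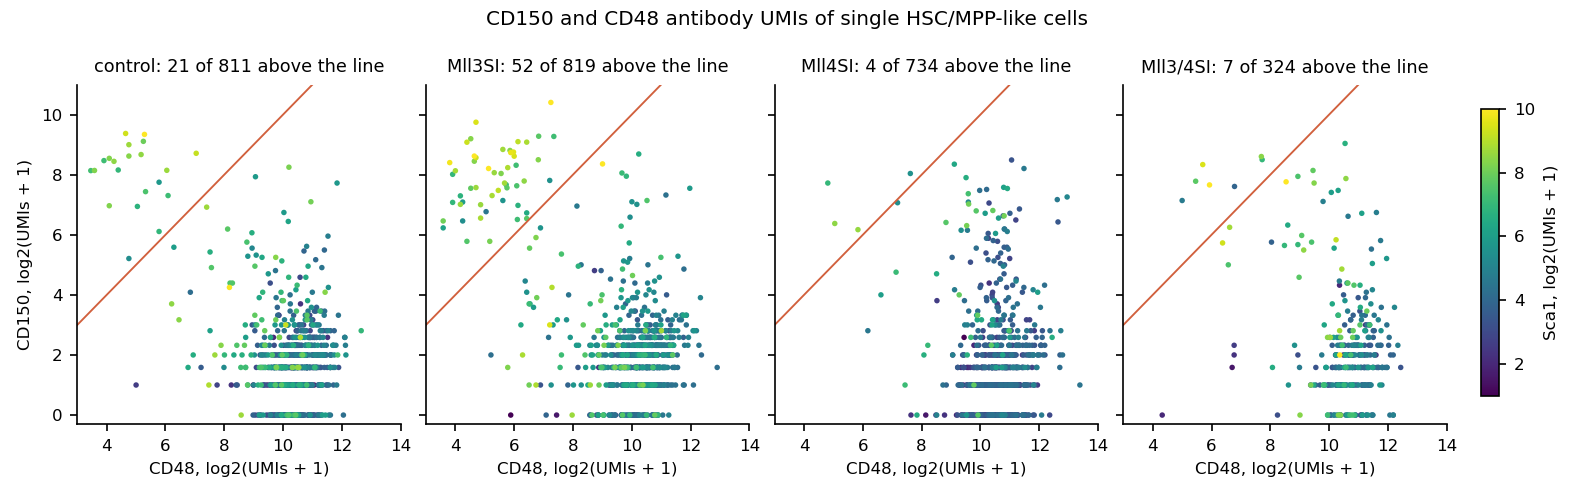
CD150 against CD48 antibody UMIs of single HSC/MPP-like cells, both as log2(UMIs + 1), 1 panel per library; colour is the Sca1 antibody and the line marks equal CD150 and CD48 UMIs. Cells above the line number 21, 52, 4 and 7 and are mostly rich in Sca1, while most other cells lie at CD48 UMIs near or above 1000 with few CD150 UMIs.

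Of the 5 antibodies not used in the split, Sca1, CD201 and CD34 differed in median UMIs in the same direction in all 4 libraries. Sca1 medians were 310, 322, 242 and 207 UMIs in these cells against 14, 20, 10 and 21 UMIs in the other HSC/MPP-like cells of control, Mll3SI, Mll4SI and Mll3/4SI. CD201 medians were 18, 23, 9.5 and 6 UMIs against 2, 4, 2 and 5, so CD201 hardly differed in Mll3/4SI. CD34 medians were 12, 26, 16.5 and 61 UMIs against 66, 98, 53 and 72. In UMIs, CD117 had no common direction, at 269, 310, 241 and 397 against 319, 281, 303.5 and 316 UMIs. Neither had CD135, at 1, 1, 2.5 and 2 against 2, 3, 1 and 3 UMIs. The CLR medians of CD117 and CD135 were lower in the split cells of every library. For CD117 they were 3.07, 2.92, 2.97 and 3.03 against 3.75, 3.37, 3.67 and 3.36.

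Several member genes also differed across the split. Procr stood at 80.3 CPM in the CD150-high control cells against 5.17 CPM in the others (15.5 [9.47 to 24.6]) and at 67.3 against 2.68 CPM in Mll3SI (25.2 [15.5 to 40.8]). In Mll4SI and Mll3/4SI it rested on 2 and 5 UMIs. Outside the split, Procr was 5.17, 2.68, 1.62 and 2.21 CPM, so control stayed highest. Slamf1 was 53.5-fold [20.4 to 139] higher in control and 33.1-fold [17.5 to 63.6] in Mll3SI, and Ly6a was 9.42-fold [6.44 to 13.4] and 11.5-fold [8.67 to 15.1] higher. Cd48 had 3 UMIs in the 21 control cells (0.0397 [0.00818 to 0.116]) and none in those of the SI libraries, which made it at least 46.5-fold lower in Mll3SI, 6.61-fold for Mll4SI and 13.1-fold for Mll3/4SI with a floor of 3 UMIs per group of cells. Flt3 had 1, 4, 2 and 3 UMIs there, and Cd34 was 0.179 [0.106 to 0.283] and 0.310 [0.233 to 0.404] of the level in the other cells of control and Mll3SI.

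**Figure D4:**
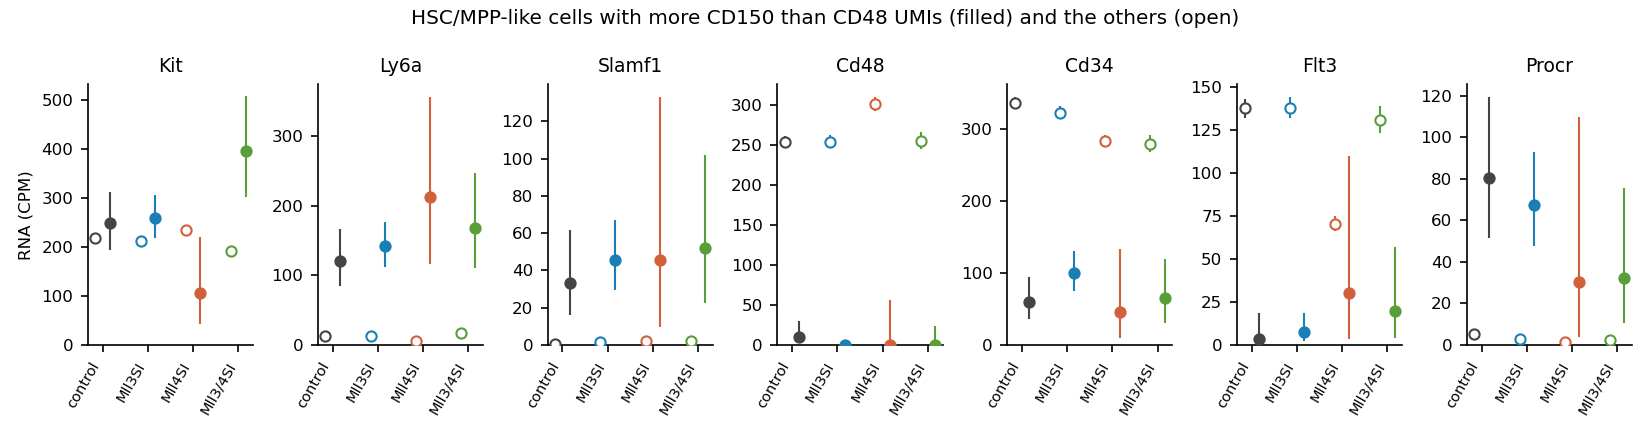
RNA of the 7 genes in CPM, from 0, in HSC/MPP-like cells with more CD150 than CD48 UMIs (filled) and in the others (open) of each library, with 95% Poisson intervals of counting error. Ly6a, Slamf1 and Procr are higher and Cd48, Cd34 and Flt3 lower in the filled group of control and Mll3SI; the Mll4SI and Mll3/4SI groups hold 4 and 7 cells and have wide intervals.

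Of the 10 listed stem cell transcripts, 10, 10, 10 and 9 were higher in the split cells of control, Mll3SI, Mll4SI and Mll3/4SI, and the interval of the ratio lay above 1 for 10, 10, 6 and 7. No share over all genes was taken for this split, so these counts describe the listed genes only. Mecom, a stem cell transcription factor, stood at 1515 against 189 CPM in control (8.02 [7.25 to 8.85]), 5.38 [4.93 to 5.86] times higher in Mll3SI, 4.19 [2.96 to 5.78] for Mll4SI and 7.72 [6.42 to 9.22] for Mll3/4SI. Hlf, another stem cell factor, was 4.03, 4.71, 3.97 and 4.99 times higher. Vwf, the clotting protein of platelet-biased stem cells, had 22, 18, 2 and 0 UMIs in the split cells against 10, 30, 15 and 7 in the others. It was the gene not counted as higher in Mll3/4SI. The limit of 3 UMIs in those split cells was 19.4 CPM against 0.859 CPM in the others, so its direction there cannot be judged. Pf4, a megakaryocyte gene, was also higher, by 11.9 [6.50 to 20.6], 16.5 [9.05 to 29.5], 3.48 [0.417 to 12.8] and 7.31 [3.1999 to 14.7]. Mpo, the granulocyte peroxidase, was at 0.0308 of the level of the other cells in control and 0.0295 in Mll3SI. Dntt, the lymphoid nucleotide-adding enzyme, had no UMI in the split cells of any library. In Mll4SI the limit for Dntt was 45.6 CPM, above the 31.5 CPM of the other cells, so no difference can be read there. Cd27, an HSC/MPP marker used for naming but not among the 10 transcripts, was lower in the split cells of every library. Its ratios were 0.300 [0.155 to 0.524], 0.665 [0.485 to 0.891], 0.436 [0.0898 to 1.28] and 0.608 [0.291 to 1.12]. The genes named here were picked from the stem cell and lineage markers after their values were seen.

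The 7 genes were also set beside lists of their families and partners, tested in HSC/MPP-like cells where the mean was at least 1 CPM. Over all genes tested in these cells, 3.91%, 10.2% and 8.16% were called in Mll3SI, Mll4SI and Mll3/4SI. Of 19 genes of Kit and Flt3 signalling, all tested, 0, 1 and 1 were called, all lower: Ptpn6, a phosphatase, in the Mll4SI library (-0.54) and Socs2, a feedback inhibitor, in the Mll3/4SI library (-0.75). The list medians were -0.03, -0.05 and -0.15, against 0.01, -0.01 and -0.06 over all genes. Of 14 Ly6 genes, 5 were tested. Ly6d, a marker of lymphoid progenitors, stood at 9.04 CPM in control, 28.9 in Mll3SI, 0.124 for Mll4SI and 39.7 for Mll3/4SI. Its log2 ratios were 1.57, -3.16 and 2.02, so the low Mll4SI level of Ly6a was shared by this family member but not by Ly6c2 (0.73), Ly6g (1.76) or Ly6k (2.87), which were higher there. In Mll3/4SI, Ly6c2 (0.71) and Ly6k (1.14) were higher and Ly6g (-0.55) was called lower. Ly6g there stood at 0.602 CPM against 1.34 CPM in control, and its log2 interval of -2.90 to 0.26 included no change.

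Among 5 tested of 11 SLAM genes, Cd84 was the only one called, in Mll4SI (0.55). None of 5 tested sialomucin and selectin genes and neither of 2 class III kinases was called in any library. Of 6 tested genes of the protein C pathway, the thrombin receptor genes F2r (-0.74 in Mll3SI) and F2rl3 (-0.56 in Mll4SI) were lower and Pros1, protein S, was higher in Mll3/4SI (0.79). Of 9 tested stem cell transcripts, 3 were higher in Mll3SI (Fgd5 0.78, Vwf 0.64, Pdzk1ip1 0.57), against 3.91% of all genes called. In Mll4SI 3 were lower (Hoxa9 -0.77, Mecom -0.59, Fgd5 -0.56), against 10.2%, and in Mll3/4SI 2 were lower (Mecom -0.66, Vwf -0.60), against 8.16%. Vwf in Mll3/4SI stood at 0.843 CPM against 1.79 CPM in control, and its log2 interval of -2.51 to 0.12 included no change. The list medians were 0.12, -0.15 and -0.29.

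A few cells held much of the CD201 signal. The 10 cells richest in CD201 had 20.4% of all CD201 UMIs in the control library, 8.66% in Mll3SI and 10.9% in Mll4SI, but 78.4% in Mll3/4SI. In Mll3/4SI, 1 cell had 78804 CD201 UMIs (53.3%) and another 34986 (23.7%) of 147766. Both were granulocyte-like, in cluster 12, with 27560 and 36606 gene UMIs, and neither had a Procr UMI. The first carried Hashtag2 and the second Hashtag1. Their Sca1 (7 and 16 UMIs) and CD150 (3 and 8 UMIs) were low, and only 1 of the 12 other antibodies reached its 99th percentile in each. Without them, CD201 fell from 0.972% to 0.174% of the antibody UMIs of granulocyte-like cells, close to 0.158% in Mll3SI, and the median CLR stayed at -2.50.

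**Figure D5:**
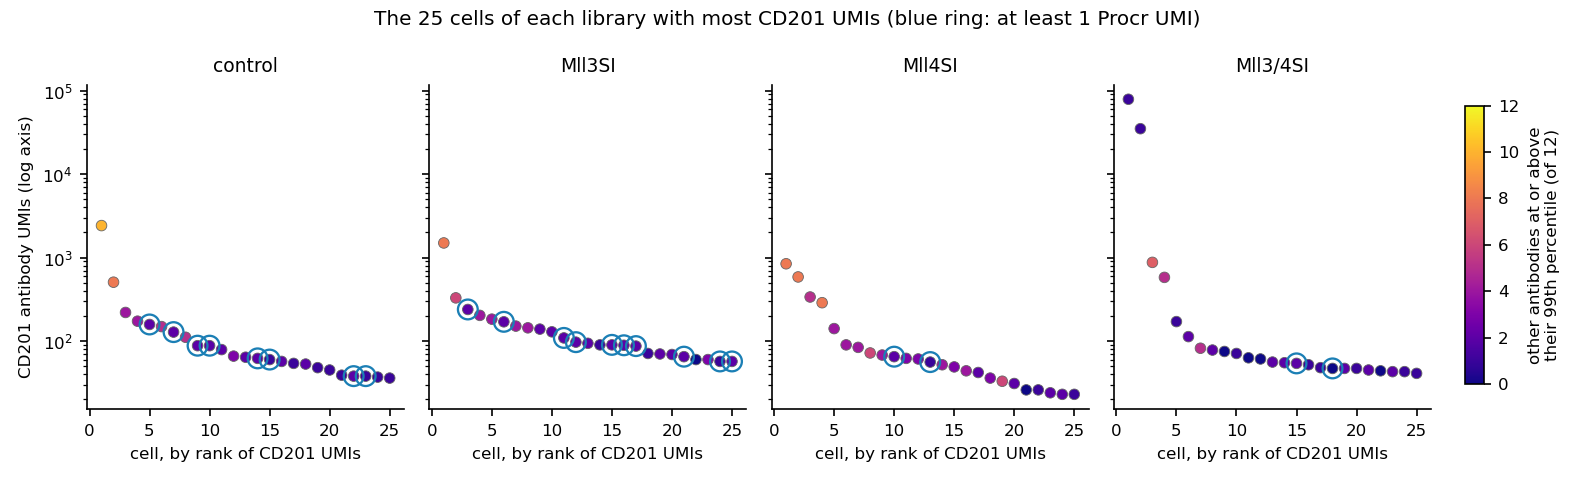
CD201 antibody UMIs (log axis) of the 25 richest cells of each library by rank; colour counts the other antibodies, of 12, at or above their 99th percentile in that library, and blue rings mark cells with a Procr UMI. The 2 richest cells of Mll3/4SI stand apart with few other antibodies high, the richest cells of the other libraries are high for 8 to 10 antibodies, and ringed cells number 8, 10, 2 and 2.

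The richest cells of the other libraries had another profile. The first of control, granulocyte-like, had 2417 CD201, 8059 Sca1, 1469 CD150 and 1193 CD135 UMIs, with 10 of 12 other antibodies at or above the 99th percentile and no UMI of any member gene but 1 of Kit. The first of Mll3SI, in an HSC/MPP-like cluster, had 1497 CD201 UMIs with 8 other antibodies high, and the first of Mll4SI, basophil/mast-like, had 843 with 8 high. Among the 10 richest cells, 6, 6, 9 and 3 had at least 4 other antibodies at that level.

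Another kind of cell had the stem cell profile. Of the 10 richest, 4 in control, 3 in Mll3SI and 1 in Mll4SI had more CD150 than CD48 UMIs and fewer than 4 other antibodies high, and all of these were HSC/MPP-like. In control these 4 had 88 to 158 CD201 UMIs, 314 to 1211 Sca1 UMIs and 16 to 38 CD48 UMIs, and each had at least 1 Procr UMI. Mll3/4SI had no HSC/MPP-like cell among its 10 richest. Of the 25 richest, 8, 10, 2 and 2 cells had a Procr UMI in control, Mll3SI, Mll4SI and Mll3/4SI.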

How the data were processed

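The authors deposited UMI counts per gene and per antibody for each cell barcode. The submitters' processing notes name Cell Ranger 7.1.0 and build mm10. No antibody clone or aligner setting is given in the sources used here. A barcode was kept if it had 500 or more genes, 1000 or more gene UMIs and no more than 10% of them mitochondrial, and doublets were removed with a Scrublet score at a rate of 0.8% per 1000 barcodes. This left 31707 of 36459 barcodes. Cells of the 4 libraries were clustered together (scanpy 1.11.5, leidenalg 0.10.2, 2000 variable genes, 30 components, resolution 1) and clusters were named from marker lists that held no member gene. Counts were summed per class and library, and a gene was tested where its mean was at least 1 CPM. Log2 ratios of CPM + 1 and differences of median CLR were called at 0.5 in size, in classes of at least 50 cells. Intervals are exact Poisson, conditional ratio or Clopper-Pearson 95% intervals (scipy 1.17.1) and cover counting error only. The log2 ratio step was tested on simulated data. The named genes were the 7 members, at most 4 genes of each related list past 0.5, and the 3 genes most like each member. Members and lists were chosen with earlier results of these data known. Hashtag thresholds (123 and 323 UMIs) were set after seeing the data. Alternatives covered the centring, the added CPM, scaling, clustering, doublets, depth and the hashtags. Cells of no named class, and clusters with too few cells, were left out of the comparisons.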

Additional observations from a re-analysis of the deposited data

Results flagged for a closer look

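In 3 cases a member's RNA differed from control in opposite directions in 2 classes of the same library. Whether the classes differ from each other was not tested, because each group had 1 library. Cd48 in Mll4SI was higher in cluster 11 (0.76) and lower in granulocyte-like cells (-0.78), but at 0.053 in granulocyte-like clusters 5 and 9 alone. Cd34 in Mll3/4SI was higher in granulocyte-like cells (0.91) and lower in basophil/mast-like cells (-0.99). The granulocyte-like value was -0.54 in clusters 5 and 9 alone and -0.68 by nearest control cells, so the opposite directions were not stable. Flt3 in Mll3SI was higher in B-lymphoid-like cells (1.54) and lower in basophil/mast-like cells (-0.94). The last rests on 3 against 12 UMIs, and its fold of 0.415 [0.0752 to 1.54] included no change.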

How the results depend on the processing

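No paired analysis was possible because each group had 1 library. In HSC/MPP-like cells of Mll4SI, Ly6a (-1.27 to -0.58) and Flt3 (-1.15 to -0.75) stayed past 0.5 in 11 of 11 alternatives, Procr in 10, and Sca1 and CD135 in 12 of 14. Values that changed direction were Slamf1 in HSC/MPP-like cells of Mll3/4SI (-0.17, Hashtag1), Cd48 in granulocyte-like cells of Mll4SI (0.053, clusters 5 and 9), Cd34 in those of Mll3/4SI (-0.68 by nearest control cells, -0.54 in clusters 5 and 9), Slamf1 (-1.30, mean over cells) and Cd34 (1.30, Hashtag2) in B-lymphoid-like cells of Mll3SI, and CD135 in basophil/mast-like cells of Mll4SI (1.02, share of summed UMIs). Uncalled Ly6a in HSC/MPP-like cells of Mll3/4SI (0.44) ranged from -0.99 to 1.17 and kept its sign in 8 of 11 alternatives. The cause was not tested. With 10 CPM added, 0, 2 and 0 member genes were called in Mll3SI, Mll4SI and Mll3/4SI; Hashtag1 cells gave 3 in Mll3SI and 1 in Mll3/4SI, and counting cluster 18 gave 5. Called antibodies in Mll3SI numbered 3 without centring, 1 by mean, 4 by share of summed UMIs, 1 at resolution 2, 2 in Hashtag1 and 1 in Hashtag2 cells. In Mll4SI they numbered 4 by share, 1 at resolution 2 and 1 in Hashtag1 cells, and in Mll3/4SI 1 without centring, 1 by nearest control cells and 2 with cluster 18. The CD201 share of the 10 richest cells was 17.9%, 7.29%, 14.8% and 76.1% over all barcodes and 19.2%, 8.04%, 12.5% and 77.1% with doublets kept, and 1 cell alone held 12.2%, 4.07%, 3.57% and 53.3%. Cells with more CD150 than CD48 made up 1.23% (control) and 8.53% (Mll3SI) of Hashtag2 cells, and 6.92%, 15.5% and 5.63% in control, Mll3SI and Mll3/4SI at resolution 2. Slamf1 and Procr rest on few UMIs, which limits both.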

Other observations

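Single cells also held much of some other antibodies. In control, 1 cell had 7938 CD127 UMIs, 16.5% of the library's total, and the same cell led for CD201 and Sca1. In Mll3/4SI, 1 cell had 318036 Gr1 UMIs, 13.6% of the total.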
